A study of Mus musculus with 16 samples.

Results

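The enzymes that carry fatty acids into mitochondria and peroxisomes and shorten them there by β-oxidation, together with the nuclear receptor that controls many of them, were followed in mouse lung as a list of 37 genes. The genes were taken by name, and each was read by the brightest of the probe sets that the array annotation assigns to it alone, chosen by the mean over all arrays and without the groups. Of the 37 genes, 35 were measured in this way among 12393 genes in all. Cpt1b, the muscle form of carnitine palmitoyltransferase, lay on a probe set annotated with several genes and Acsl1, a long-chain acyl-CoA synthetase, on no probe set of its own, and both were not analysed here. RNA of the left lung, called whole lung RNA in the sample titles, was hybridised to 1 Affymetrix array per mouse, 16 arrays in all. The groups were wildtype C57BL/6 mice in room air, wildtype mice in 0.3 ppm ozone, adiponectin-deficient mice on the same background in room air, and adiponectin-deficient mice in 0.3 ppm ozone, each exposed for 72 h and killed at once afterwards. Each group held 4 mice, 2 males (M1 and M2) and 2 females (F1 and F2), with a mean age of 14 weeks over the study. The deficient mice were described as lacking adiponectin, a hormone of fat cells, by genetic means, and the removed part of its gene is not stated in the sources used here.

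In β-oxidation, a fatty acid is activated to an acyl-CoA, passed into mitochondria on carnitine, and then cut step by step by a dehydrogenase, a hydratase, a second dehydrogenase and a thiolase, with electrons handed on through the electron transfer flavoprotein. Peroxisomes run a parallel set of enzymes on very long, branched and dicarboxylic chains and pass shortened products to mitochondria. PPARα, encoded by Ppara, is a fatty-acid-activated receptor that induces many of these genes, above all in liver, and in the lung the alveolar type 2 cells, which make surfactant lipid, are rich in peroxisomes.

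Levels are log2 intensities of 1 probe set, and were compared between arrays and never between genes. Differences are limma estimates on the log2 scale ± SE with 4 arrays per group, and limma's p-values were adjusted by Benjamini-Hochberg over all 12393 genes; a gene was called at an adjusted p under 0.05. Array values are listed as M1, M2, F1, F2. Alternatives are up to 27 refits, 11 with another setting and 16 with 1 array left out. In these bulk samples, fewer cells of a type and less RNA per cell cannot be told apart. Adipoq, the targeted gene, read 7.19, 8.05, 11.52 and 8.89 in air and 7.70, 7.77, 7.96 and 8.76 in ozone in wildtype mice, while deficient mice read 6.32, 6.43, 6.97 and 8.82 in air and 6.36, 6.14, 6.33 and 6.07 in ozone. The array labelled deficient air F2 therefore stood inside the wildtype range, and the other 7 deficient arrays below it. That array and wildtype air F1 held the brown fat gene Ucp1 at 7.27 and 7.25, with the other 14 between 4.62 and 5.18, and deficient air M2 carried the muscle creatine kinase Ckm at 12.84, with the other 15 between 8.20 and 8.76. These 3 air arrays are named fat- or muscle-marked, and leaving them out was decided after seeing the data. Cidec, a fat cell gene, read 8.54 on deficient air F2 and 8.67 on wildtype air F1, with the other 14 between 5.25 and 6.40. At these similar fat marker levels, Adipoq read 8.82 on deficient air F2 and 11.52 on wildtype air F1. Whether the genotype label of deficient air F2 is right was not tested. For wildtype ozone F1 the description field gave room air and the title, source and exposure fields gave ozone, and it is treated as an ozone array.

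Ozone moved single enzymes of fatty acid oxidation up and others down in both genotypes, with about as many genes up as down. In both genotypes Etfb, a subunit of the electron transfer flavoprotein, Hadha, the α subunit of the mitochondrial trifunctional protein, Decr2, the peroxisomal dienoyl-CoA reductase, and Acot8, a peroxisomal thioesterase, were higher after ozone. In both genotypes Acaa1b, a peroxisomal thiolase, Ehhadh, the peroxisomal bifunctional enzyme, Etfdh, the oxidoreductase that takes electrons from the flavoprotein to ubiquinone, and Ppara were lower. Acaa1b had the largest difference, 4.08-fold lower in wildtype and 2.59-fold lower in deficient mice, and every other called difference lay between 0.16 and 0.52 on the log2 scale. The plot of ozone differences by gene shows both genotypes side by side.

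**Figure D1:**
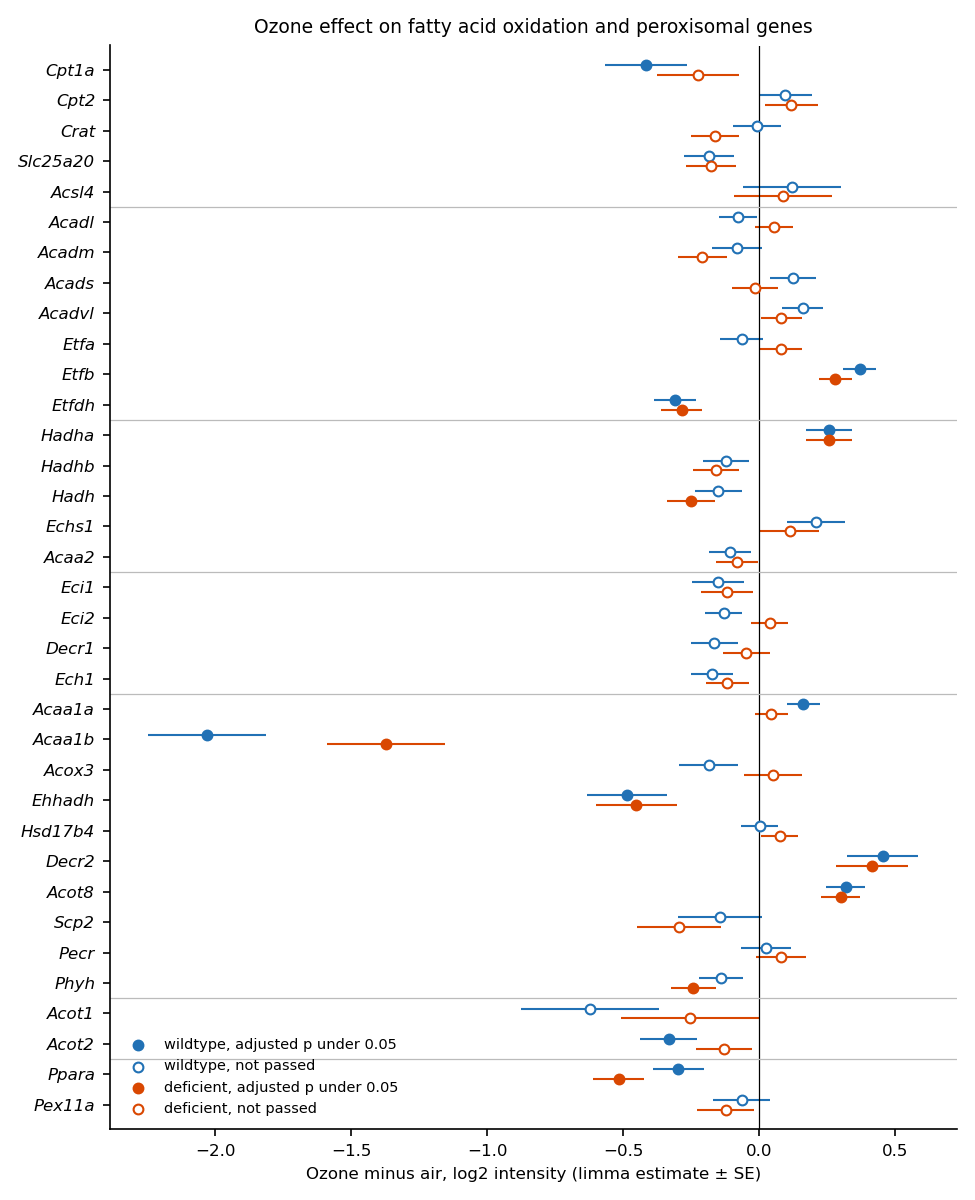
Ozone minus air difference of each of the 35 measured genes on the log2 scale (limma estimate ± SE, 4 arrays per group), in wildtype and in deficient mice, grouped by role. Acaa1b stands apart on the lower side, at -2.03 in wildtype and -1.37 in deficient mice, and the other genes lie between -0.62 and 0.45.

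In wildtype mice 11 of the 35 genes passed the threshold (31.4%), 5 higher and 6 lower, and 24 did not pass. Over all genes 36.7% passed in wildtype mice, 19.6% higher and 17.1% lower. In deficient mice 10 of the 35 passed (28.6%), 4 higher and 6 lower, against 30.3% of all genes, 15.8% higher and 14.6% lower. With all arrays in the fit, the share of called genes was near that of all genes in each genotype. The median difference of the 35 genes was -0.11 in wildtype and -0.082 in deficient mice, beside 0.032 and 0.012 over all genes. Single arrays moved these medians: that in wildtype mice was -0.060 without wildtype air F1 and -0.069 without wildtype ozone M1, and that in deficient mice was -0.022 without deficient ozone F2, -0.050 without deficient air M1 and -0.050 without the array labelled deficient air F2. Of the 35 genes, 23 stood below 0 in wildtype and 20 in deficient mice, beside 44.5% and 47.5% of all genes. The 2 ozone comparisons share no arrays. Both came from the same fit, with a shared estimate of each gene's spread, so they are not independent tests. They called 4 genes higher in both, 4 lower in both and 0 in opposite directions; 3 were called in wildtype mice alone (Cpt1a, Acaa1a and Acot2) and 2 in deficient mice alone (Hadh and Phyh). Over all 12393 genes these counts were 1532, 1463 and 0, with 1551 called in wildtype mice alone and 766 in deficient mice alone, so that opposite calls were absent there too. No such gene is shown to differ between the genotypes, since the interaction of genotype and ozone called 0 of the 35 genes by limma, with 1 at an unadjusted p under 0.05, and called 0% of all genes. The count in wildtype mice was 7 of 35 without wildtype air M1, 6 without wildtype air F2 and 6 without wildtype ozone M2, where 30.8%, 33.4% and 31.4% of all genes were called, so the share of the 35 genes lay below that of all genes in these 3 refits. In deficient mice it was 6 without deficient air M1, 6 without deficient ozone F1, and 6 without the 3 fat- or muscle-marked arrays and deficient ozone F2, where 24.5%, 27.1% and 19.3% of all genes were called.

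**Figure D2:**
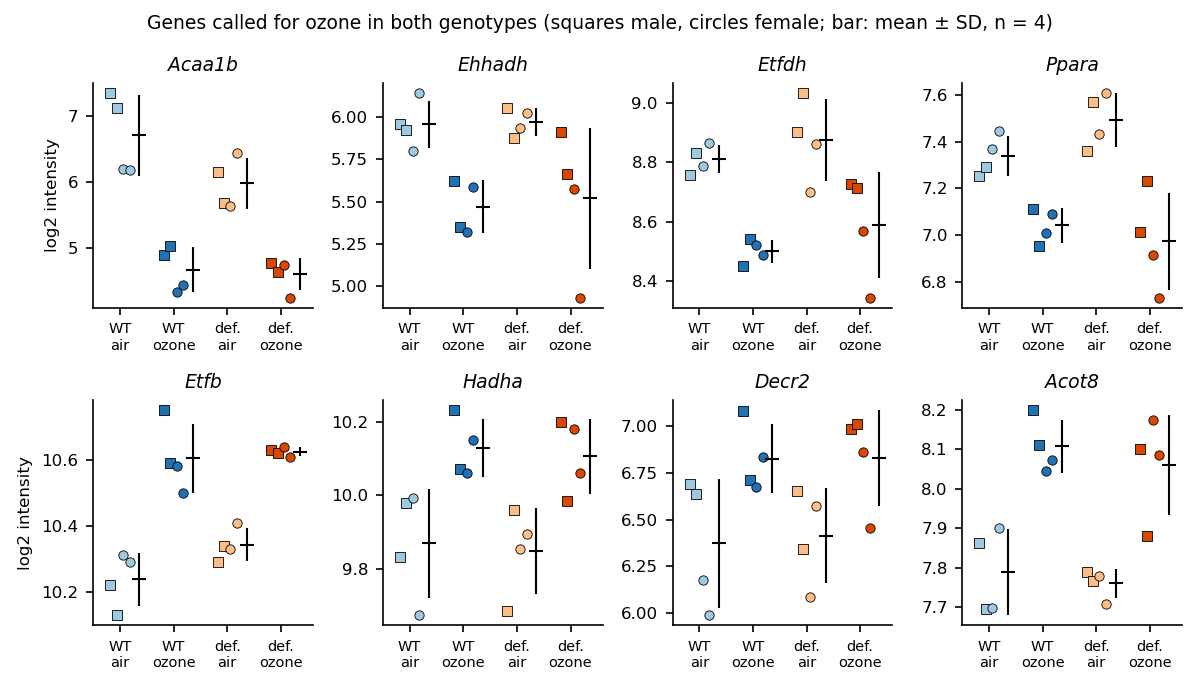
Log2 intensity on each array (squares male, circles female; bar, mean ± SD, n = 4) of the 8 genes called for ozone in both genotypes. Acaa1b, Ehhadh, Etfdh and Ppara are lower and Etfb, Hadha, Decr2 and Acot8 higher after ozone, and the air and ozone arrays of Acaa1b do not overlap in either genotype.

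Of 5 measured genes of mitochondrial import, 1 fell and 4 did not pass in wildtype mice, and 0 passed in deficient mice. Cpt1a, the carnitine palmitoyltransferase of the outer membrane that limits the entry of long chains, fell 1.33-fold in wildtype mice. It read 9.86, 10.03, 9.53 and 9.43 in air and 9.42, 9.60, 9.16 and 9.0 in ozone in wildtype mice. Within each sex both ozone arrays lay below both air arrays, while the groups as a whole overlapped, with males higher than females. In deficient mice Cpt1a read 9.97, 9.71, 9.57 and 9.69 in air and 9.85, 9.74, 9.70 and 8.74 in ozone, where F2 stood far below the other 3 arrays. The difference was -0.42 ± 0.15 in wildtype (adjusted p = 0.042) and -0.23 ± 0.15 in deficient mice (adjusted p = 0.287); without deficient ozone F2 the latter was -0.024. The wildtype call did not survive omission of any 1 of 11 arrays: wildtype air M1 (0.0634), M2 (0.105), F1 (0.0781) or F2 (0.0586), wildtype ozone M1 (0.1), M2 (0.0523), F1 (0.0582) or F2 (0.0925), deficient air M1 (0.0509) or F1 (0.0504), or deficient ozone M2 (0.051), all as adjusted p (0.00284 to 0.141 across alternatives). It was also lost without the 3 fat- or muscle-marked arrays (adjusted p = 0.081) and without the sex term (0.141). The other 2 probe sets of Cpt1a stood at -0.40 and -0.36 in wildtype mice, in a fit over all single-gene probe sets. Both are of a type whose probes can match other transcripts. Slc25a20, the carnitine-acylcarnitine carrier of the inner membrane, stood at -0.19 ± 0.093 in wildtype (adjusted p = 0.13) and -0.18 ± 0.093 in deficient mice (adjusted p = 0.169). Its other probe set stood at -0.024 ± 0.090 in wildtype and 0.058 ± 0.090 in deficient mice. Cpt2, which returns the chain from carnitine to coenzyme A inside the mitochondrion, stood at 0.096 ± 0.097 and 0.12 ± 0.097, and its arrays ran from 8.50 to 9.03 over all groups with the groups overlapping. Crat, which makes acetylcarnitine, stood at -0.0061 ± 0.088 and -0.16 ± 0.088 on its brightest probe set, and its other probe set was called higher in wildtype mice (0.34 ± 0.076, adjusted p = 0.00308). Acsl4, an acyl-CoA synthetase with a preference for arachidonate, stood at 0.12 ± 0.18 and 0.089 ± 0.18 on its brightest probe set. Its other 2 probe sets were called higher in deficient mice, at 0.72 ± 0.17 (adjusted p = 0.00509) and 0.50 ± 0.18 (adjusted p = 0.0437), so the probe sets of Acsl4 disagreed.

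Among the acyl-CoA dehydrogenases and their electron carriers, 1 of 7 genes rose, 1 fell and 5 did not pass, in each genotype. Both called genes belonged to the electron carriers, and they moved in opposite directions. Etfb read 10.22, 10.13, 10.31 and 10.29 in air and 10.75, 10.59, 10.58 and 10.50 in ozone in wildtype mice, while deficient mice read 10.29, 10.34, 10.33 and 10.41 in air and 10.63, 10.62, 10.64 and 10.61 in ozone. Every ozone array stood above every air array of its genotype. Etfb rose by 0.37 ± 0.061 in wildtype (adjusted p = 0.000354) and 0.28 ± 0.061 in deficient mice (adjusted p = 0.00286), and kept both calls under all 27 alternatives. Etfa, which encodes the other subunit of the same flavoprotein, stood at -0.064 ± 0.080 (95% interval -0.23 to 0.11) and 0.079 ± 0.080 (-0.091 to 0.25). Etfdh read 8.76, 8.83, 8.79 and 8.87 in air and 8.45, 8.54, 8.52 and 8.49 in ozone in wildtype mice, while deficient mice read 8.90, 9.03, 8.70 and 8.86 in air and 8.73, 8.71, 8.57 and 8.35 in ozone. The wildtype groups did not overlap, and in deficient mice the air array F1 lay below the ozone arrays M1 and M2. Etfdh fell by 0.31 ± 0.076 in wildtype (adjusted p = 0.00537) and by 0.28 ± 0.076 in deficient mice (adjusted p = 0.0101). The wildtype call of Etfdh held under all 27 alternatives. The call in deficient mice did not survive omission of the 3 fat- or muscle-marked arrays (adjusted p = 0.128) or, at a difference of -0.14, of those and deficient ozone F2 (adjusted p = 0.281), with adjusted p from 0.00737 to 0.281 across alternatives. The 4 dehydrogenases themselves, which take the first electrons from chains of different length, did not pass. Acadl, the long-chain enzyme, stood at -0.077 ± 0.071 and 0.055 ± 0.071 in wildtype and deficient mice, and Acadm, the medium-chain enzyme, at -0.082 ± 0.091 and -0.21 ± 0.091 (adjusted p = 0.0985 in deficient mice). Acads, the short-chain enzyme, stood at 0.13 ± 0.085 and -0.014 ± 0.085, and Acadvl, the very-long-chain enzyme, at 0.16 ± 0.075 (adjusted p = 0.106) and 0.081 ± 0.075.

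Of the 5 genes of the mitochondrial hydratase, dehydrogenase and thiolase steps, 1 rose and 4 did not pass in wildtype mice, and 1 rose, 1 fell and 3 did not pass in deficient mice. The 2 subunits of the trifunctional protein, Hadha and Hadhb, which act as one complex on long chains, did not share a call. Hadha read 9.83, 9.98, 9.99 and 9.68 in air and 10.23, 10.07, 10.06 and 10.15 in ozone in wildtype mice, while deficient mice read 9.69, 9.96, 9.85 and 9.90 in air and 10.20, 9.98, 10.18 and 10.06 in ozone. Air and ozone arrays of Hadha did not overlap in either genotype. Hadha rose by 0.26 ± 0.083 in wildtype (adjusted p = 0.0254) and by 0.26 ± 0.083 in deficient mice (adjusted p = 0.0289). The wildtype call did not survive omission of wildtype air M1 (adjusted p = 0.0638) or F2 (0.0878) or wildtype ozone M1 (0.0791) or F2 (0.0548), with adjusted p from 0.00996 to 0.0878 across alternatives. That in deficient mice did not survive omission of deficient air M1 (0.106) or F1 (0.0532) or deficient ozone M1 (0.0836) or F1 (0.0807), with adjusted p from 0.00929 to 0.106 across alternatives. Hadhb stood at -0.12 ± 0.085 in wildtype (95% interval -0.30 to 0.057) and -0.16 ± 0.085 in deficient mice (-0.34 to 0.020). Its second probe set was called lower in wildtype mice (-0.58 ± 0.15, adjusted p = 0.00667) and stood at -0.35 ± 0.15 in deficient mice (adjusted p = 0.0854). That second probe set is of a type whose probes can match other transcripts. The 2 genes lie head to head on chromosome 5 in RefSeq's gene table for GRCm38.p6, and their upstream windows of 250 bases share 228 bases. That shared stretch is shown because one piece of DNA lies upstream of both a gene that rose and a gene that was not called higher; it is written 5′ to 3′ in the direction of Hadhb (chr5:30155003-30155230, plus strand), with the GC box (GGGCGG on either strand) in capitals.
Hadhb and Hadha shared stretch: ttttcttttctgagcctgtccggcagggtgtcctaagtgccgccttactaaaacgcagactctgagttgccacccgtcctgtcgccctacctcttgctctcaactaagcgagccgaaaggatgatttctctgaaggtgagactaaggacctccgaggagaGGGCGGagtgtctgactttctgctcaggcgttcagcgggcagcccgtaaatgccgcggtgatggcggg

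The stretch held 1 GC box, and the same letters read on the minus strand for Hadha. Hadh, the medium- and short-chain hydroxyacyl-CoA dehydrogenase, read 11.93, 11.73, 11.80 and 11.94 in air and 11.69, 11.62, 11.67 and 11.42 in ozone in deficient mice, with every ozone array below every air array. Hadh fell by 0.25 ± 0.088 in deficient mice (adjusted p = 0.0415) and stood at -0.15 ± 0.088 in wildtype mice (adjusted p = 0.197). Its 3 probe sets were each called lower in deficient mice. The brightest of them and the dimmest, at a mean level of 4.71, are of a type whose probes can match other transcripts. The call of Hadh did not survive omission of deficient air M1 (adjusted p = 0.125), of the array labelled deficient air F2 (0.0949) or deficient ozone M2 (0.0531), F1 (0.0641) or F2 (0.156), with adjusted p from 0.0169 to 0.24 across alternatives. Hadh was not called either without the 3 fat- or muscle-marked arrays (adjusted p = 0.107), without those and deficient ozone F2 (0.24), without the sex term (0.0508), with the replicate block (0.0532) or with the compared groups alone (0.0514). Echs1, the short-chain hydratase, stood at 0.21 ± 0.11 and 0.11 ± 0.11. Acaa2, the mitochondrial thiolase that releases acetyl-CoA, stood at -0.11 ± 0.078 and -0.082 ± 0.078 in wildtype and deficient mice. The 4 auxiliary enzymes of unsaturated chains, which shift or remove double bonds so that β-oxidation can go on, all lacked a call. In wildtype mice the isomerases Eci1 and Eci2 stood at -0.15 ± 0.096 and -0.13 ± 0.068, the mitochondrial dienoyl-CoA reductase Decr1 at -0.16 ± 0.086 and the dienoyl-CoA isomerase Ech1 at -0.17 ± 0.078 (adjusted p = 0.0947). In deficient mice they stood at -0.12 ± 0.096, 0.039 ± 0.068, -0.046 ± 0.086 and -0.12 ± 0.078.

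Peroxisomal enzymes held both the largest fall, in Acaa1b, and the largest rise, in Decr2. Of the 10 genes, 3 rose, 2 fell and 5 did not pass in wildtype mice, and 2 rose, 3 fell and 5 did not pass in deficient mice. Acaa1b, a thiolase of the last step of peroxisomal β-oxidation, read 7.34, 7.11, 6.19 and 6.17 in air and 4.89, 5.03, 4.34 and 4.44 in ozone in wildtype mice, while deficient mice read 6.15, 5.67, 5.64 and 6.44 in air and 4.78, 4.64, 4.74 and 4.25 in ozone. All 8 ozone arrays lay below all 8 air arrays, and the males of wildtype air stood above all others. Acaa1b fell by 2.03 ± 0.22 in wildtype (adjusted p = 1.23e-05) and by 1.37 ± 0.22 in deficient mice (adjusted p = 0.000261). The difference lay between -2.15 and -1.88 in wildtype and between -1.56 and -1.13 in deficient mice over 26 alternatives, among them the fits without the fat- or muscle-marked arrays, and the call held in each. The interaction stood at 0.66 ± 0.31 (unadjusted p = 0.0496, adjusted p = 0.983). Acaa1b, Ehhadh and Acox3 lay among the 25% of genes with the lowest mean level, below 5.83, and their distance from background is unknown, as detection calls were not used. Acaa1a encodes the closely related thiolase of the same step, and since both of its probe sets are of a type whose probes can match other transcripts, its signal and that of Acaa1b may be shared in part. It read 9.17, 9.12, 9.25 and 9.38 in air and 9.41, 9.44, 9.42 and 9.29 in ozone in wildtype mice, and the groups overlapped through F2. Its difference was 0.16 ± 0.060 in wildtype (adjusted p = 0.0476), a call lost under 21 of 27 alternatives and without any 1 of 14 arrays, with adjusted p up to 0.146 without wildtype air M2; wildtype air F2 and wildtype ozone F2 were the arrays without which it held. In deficient mice Acaa1a stood at 0.045 ± 0.060 (adjusted p = 0.622), and at -0.069 with the mean of both probe sets. Its other, dimmer probe set stood at -0.062 ± 0.103 in wildtype mice (adjusted p = 0.673). With the mean of both, the wildtype difference was 0.050 (adjusted p = 0.585). Over all alternatives the adjusted p of Acaa1a in wildtype mice ran from 0.0141 to 0.585.

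The upstream windows of this pair of thiolase genes are shown because Acaa1b fell most of all and its close relative was not called lower. Both windows hold the 250 bases before the start of the gene in RefSeq's annotation of GRCm38.p6, written 5′ to 3′ on the strand of the gene, Acaa1b at chr9:119157094-119157343, minus strand and Acaa1a at chr9:119341044-119341293, plus strand. Capitals mark the CCAAT box and the GC box, each on either strand.
Acaa1b: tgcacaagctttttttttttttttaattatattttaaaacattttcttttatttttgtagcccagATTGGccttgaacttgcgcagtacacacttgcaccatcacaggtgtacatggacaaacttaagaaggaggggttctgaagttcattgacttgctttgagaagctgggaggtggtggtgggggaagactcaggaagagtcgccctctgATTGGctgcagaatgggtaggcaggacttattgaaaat
Acaa1a: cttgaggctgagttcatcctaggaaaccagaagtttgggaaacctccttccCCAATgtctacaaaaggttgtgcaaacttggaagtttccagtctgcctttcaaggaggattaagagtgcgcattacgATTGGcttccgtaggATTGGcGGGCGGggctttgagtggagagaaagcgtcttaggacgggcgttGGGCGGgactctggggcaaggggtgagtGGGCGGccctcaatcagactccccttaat

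Both windows held CCAAT boxes, and only that of Acaa1a held GC boxes. The Acaa1b window had 2 CpG dinucleotides and a GC content of 41.6%, and the Acaa1a window 10 and 53.6%. Among the 31 measured genes with a window, Acaa1b had the fewest CpG dinucleotides, with the next lowest, Acot1, at 4 and a median of 12. The median was 6 over 32851 windows, which were not limited to measured genes. Neither window held the PPAR core element AGGTCA on either strand, which says only that these letters are not in these bases.

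Ehhadh, which hydrates and dehydrogenates chains in the peroxisome, read 5.96, 5.92, 5.80 and 6.14 in air and 5.62, 5.35, 5.32 and 5.59 in ozone in wildtype mice, while deficient mice read 6.06, 5.88, 5.93 and 6.02 in air and 5.91, 5.67, 5.58 and 4.93 in ozone. The wildtype groups did not overlap, and in deficient ozone M1 reached the air range while F2 was far below. Ehhadh fell by 0.49 ± 0.15 in wildtype (adjusted p = 0.0188) and by 0.45 ± 0.15 in deficient mice (adjusted p = 0.0313). The wildtype call did not survive omission of wildtype air F2 (adjusted p = 0.065) or wildtype ozone M2 (0.0588), with adjusted p from 0.00151 to 0.065 across alternatives. The other call did not survive omission of deficient air M1 (0.0679) or F1 (0.0657), of the array labelled deficient air F2 (0.0828) or, at -0.26, deficient ozone F2 (0.0897), with adjusted p from 0.00999 to 0.146 across alternatives. It was also lost without the 3 fat- or muscle-marked arrays (adjusted p = 0.0907), without those and deficient ozone F2 (0.146) and with the compared groups alone (0.0681). Decr2, which reduces dienoyl-CoA in the peroxisome, moved the other way. It read 6.69, 6.64, 6.18 and 5.99 in air and 7.09, 6.71, 6.68 and 6.84 in ozone in wildtype mice, while deficient mice read 6.65, 6.35, 6.08 and 6.57 in air and 6.99, 7.01, 6.86 and 6.46 in ozone. Groups overlapped in both genotypes, by the ozone array F1 in wildtype and F2 in deficient mice. Decr2 rose by 0.45 ± 0.13 in wildtype (adjusted p = 0.0146) and by 0.42 ± 0.13 in deficient mice (adjusted p = 0.0264). The wildtype call of Decr2 did not survive omission of wildtype air F2 (adjusted p = 0.052), with adjusted p from 0.00614 to 0.052 across alternatives. That in deficient mice did not survive omission of deficient air M2 (0.0779) or F1 (0.0834) or deficient ozone M1 (0.0516), M2 (0.0586) or F1 (0.0851), with adjusted p from 0.00694 to 0.0851 across alternatives. Without the sex term, neither call of Decr2 held (adjusted p = 0.0514 in wildtype and 0.0833 in deficient mice).

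Acot8, which releases free acids from acyl-CoA in peroxisomes, read 7.86, 7.69, 7.70 and 7.90 in air and 8.20, 8.11, 8.05 and 8.07 in ozone in wildtype mice, while deficient mice read 7.79, 7.77, 7.78 and 7.71 in air and 8.10, 7.88, 8.17 and 8.09 in ozone. All ozone arrays of Acot8 stood above all air arrays of their genotype. Acot8 rose by 0.32 ± 0.071 in wildtype (adjusted p = 0.00294) and by 0.30 ± 0.071 in deficient mice (adjusted p = 0.00483); the second call did not survive omission of the 3 fat- or muscle-marked arrays and deficient ozone F2 (adjusted p = 0.0752, 0.00137 to 0.0752 across alternatives). Phyh, which hydroxylates phytanic acid so that this branched chain can be degraded, read 9.41, 9.55, 9.30 and 9.34 in air and 9.19, 9.12, 9.14 and 9.18 in ozone in deficient mice, without overlap. Phyh fell by 0.24 ± 0.082 in deficient mice (adjusted p = 0.0353) and stood at -0.14 ± 0.082 in wildtype mice (adjusted p = 0.195). The call did not survive omission of deficient air M1 (0.0809) or M2 (0.114) or deficient ozone M2 (0.0762), F1 (0.0802) or F2 (0.0699), as adjusted p (0.0219 to 0.188 across alternatives). Phyh was not called either without the 3 fat- or muscle-marked arrays (adjusted p = 0.129) or without those and deficient ozone F2 (0.188). Scp2, the sterol carrier protein whose long form is a peroxisomal thiolase, read 11.55, 11.86, 11.62 and 11.55 in air and 11.27, 11.42, 11.56 and 11.74 in ozone in wildtype mice, while deficient mice read 12.02, 11.40, 11.55 and 12.22 in air and 11.58, 11.60, 11.35 and 11.48 in ozone. Groups overlapped in both genotypes. Scp2 stood at -0.14 ± 0.16 in wildtype and -0.29 ± 0.16 in deficient mice (adjusted p = 0.171, and 0.0365 at -0.43 without deficient air M2; 0.0365 to 0.518 across alternatives), and in wildtype mice 1 of its other 3 probe sets was called higher (0.34 ± 0.10, adjusted p = 0.0179). Another probe set of Scp2, at a similar mean level (11.48 beside 11.61), stood at 0.039 ± 0.082 in wildtype and 0.010 ± 0.082 in deficient mice. Acox3, an acyl-CoA oxidase of branched chains, stood at -0.19 ± 0.11 and 0.051 ± 0.11 in wildtype and deficient mice. Hsd17b4, the second peroxisomal bifunctional enzyme, had the smallest wildtype difference of these 10 genes, 0.0021 ± 0.068 (95% interval -0.14 to 0.15), and stood at 0.076 ± 0.068 in deficient mice. Its arrays read 10.01, 10.02, 9.89 and 10.04 in air and 10.06, 10.07, 9.98 and 9.87 in ozone in wildtype mice. Pecr, a peroxisomal enoyl-CoA reductase, stood at 0.025 ± 0.092 and 0.080 ± 0.092.

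The 2 acyl-CoA thioesterases Acot1, of the cytosol, and Acot2, of mitochondria, are neighbouring genes on chromosome 12 of close sequence, so their probe sets may share signal. Acot1 read 7.56, 8.32, 7.15 and 7.53 in air and 6.74, 7.20, 7.21 and 6.91 in ozone in wildtype mice, while deficient mice read 8.43, 7.72, 7.47 and 7.64 in air and 7.81, 7.61, 8.04 and 6.78 in ozone. The spread between mice was wide, and groups overlapped in both genotypes. Acot1 stood at -0.62 ± 0.26 in wildtype (95% interval -1.17 to -0.079, adjusted p = 0.0687) and -0.25 ± 0.26 in deficient mice (adjusted p = 0.497). The latter ran from -0.49 without deficient ozone F1 to -0.028 without deficient ozone F2, stood at -0.091 without deficient air M1, and passed under none of the alternatives (0.148 to 0.956, as adjusted p). It passed in wildtype mice without wildtype ozone F1 (adjusted p = 0.0479), deficient ozone F1 (0.0394) or deficient ozone F2 (0.042), with adjusted p from 0.0282 to 0.22 across alternatives. So it did with the compared groups alone (adjusted p = 0.0426) and without the 3 fat- or muscle-marked arrays and deficient ozone F2 (0.0282). Acot2 read 5.65, 5.79, 5.40 and 5.26 in air and 5.30, 5.20, 5.10 and 5.18 in ozone in wildtype mice, while deficient mice read 5.62, 5.05, 5.32 and 5.27 in air and 5.24, 5.22, 5.21 and 5.08 in ozone, and it too lay among the dimmest 25% of genes. Groups overlapped in both genotypes. Acot2 fell by 0.33 ± 0.10 in wildtype mice (adjusted p = 0.0215) and stood at -0.13 ± 0.10 in deficient mice (adjusted p = 0.386). Its wildtype call did not survive omission of wildtype air M1 (adjusted p = 0.054) or M2 (0.0787) or wildtype ozone M2 (0.0567), with adjusted p from 0.00316 to 0.0787 across alternatives. Without deficient air M2, which carried muscle markers, Acot2 passed in deficient mice at -0.25 (adjusted p = 0.0294, range 0.0294 to 0.783). In deficient mice it also passed without the 3 fat- or muscle-marked arrays (adjusted p = 0.0478).

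Ppara, the receptor gene, read 7.25, 7.29, 7.37 and 7.45 in air and 7.11, 6.96, 7.01 and 7.09 in ozone in wildtype mice, while deficient mice read 7.36, 7.57, 7.43 and 7.61 in air and 7.02, 7.23, 6.92 and 6.73 in ozone. Every ozone array lay below every air array of its genotype. Ppara fell by 0.30 ± 0.093 in wildtype (adjusted p = 0.0212) and by 0.52 ± 0.093 in deficient mice (adjusted p = 0.000688), and the interaction stood at -0.22 ± 0.13 (adjusted p = 0.983). The wildtype call did not survive omission of wildtype air F2 (adjusted p = 0.0653) or wildtype ozone M2 (0.063), with adjusted p from 0.00911 to 0.0653 across alternatives. The call in deficient mice held under all 27 alternatives, with the smallest difference, -0.34, without the 3 fat- or muscle-marked arrays and deficient ozone F2. Pex11a, a membrane protein of peroxisome division and a target of PPARα, stood at -0.065 ± 0.11 and -0.12 ± 0.11. Its other, dimmer probe set stood at -0.32 ± 0.16 in wildtype (adjusted p = 0.124) and -0.32 ± 0.16 in deficient mice (adjusted p = 0.133).

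Single mice shared high or low values over many of these genes. Deficient ozone F2 was the lowest of its group for 25 of the 35 genes (71.4%), beside 28.4% of all genes, and deficient ozone M1 was the highest for 22 (62.9%, beside 24.2%). Wildtype ozone F1 was the lowest of its group for 19 (54.3%, beside 21.6%), and the array labelled deficient air F2 the highest for 18 (51.4%, beside 17.6%). The median deviation of the 35 genes from their group means was -0.18 on deficient ozone F2 and 0.098 on deficient ozone M1. Without the 3 fat- or muscle-marked arrays and deficient ozone F2, the median ozone difference of the 35 genes in deficient mice was 0.0195, in place of -0.082. Of the 10 calls in deficient mice, those of Etfb, Acaa1b and Ppara were kept under every alternative; of the 11 in wildtype mice, those of Etfb, Etfdh, Acaa1b and Acot8 were. The heat map by array shows the pattern.

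**Figure D3:**
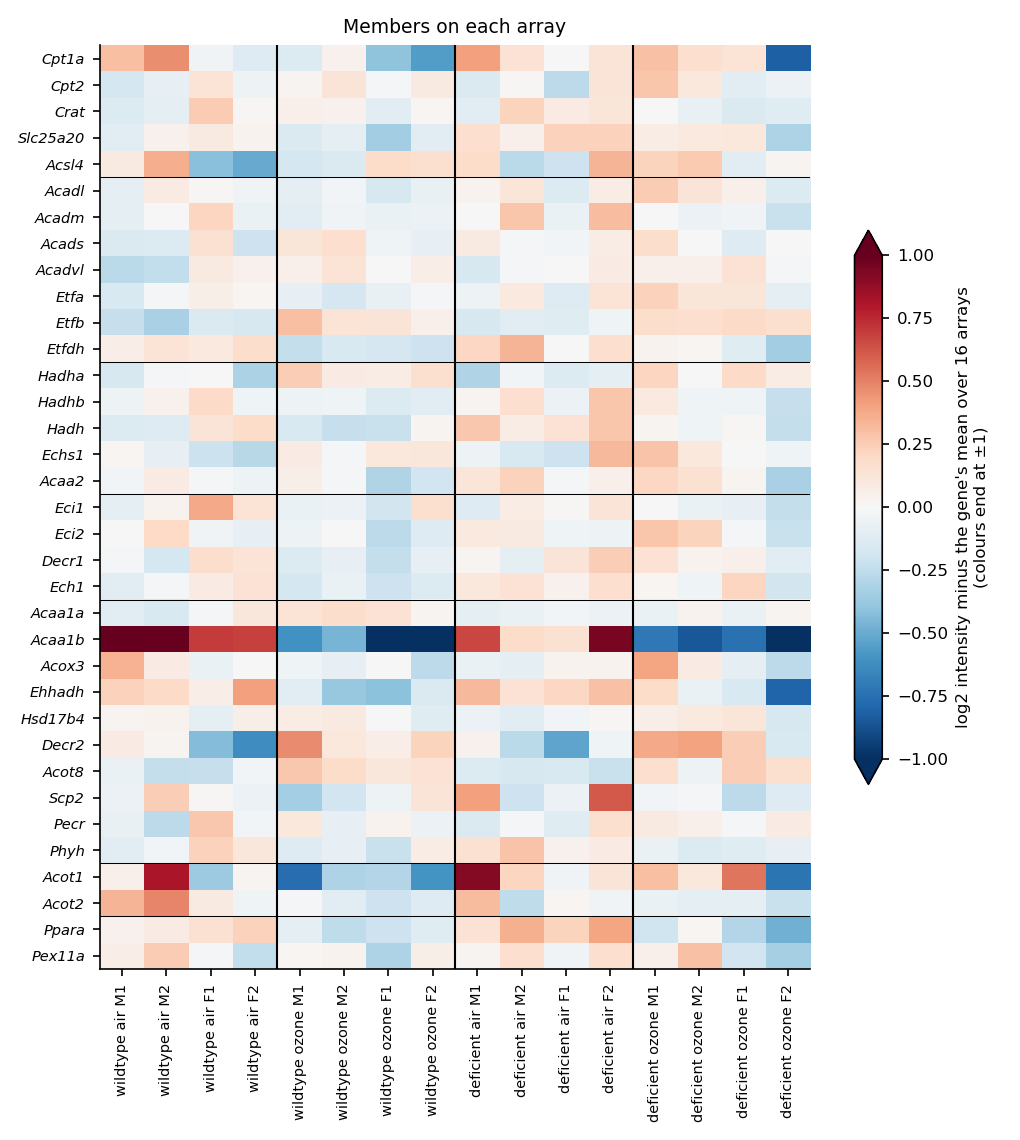
Log2 intensity of each of the 35 genes on each of the 16 arrays minus the mean of the gene over all arrays (colours end at ±1), with vertical lines between groups and horizontal lines between roles. Acaa1b changes from high to low between air and ozone, and deficient ozone F2 is the lowest of its group for 25 of the 35 genes.

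Some markers of cell types also differed between groups or single arrays, and their part in the results was not tested. Their called counts stand beside 19.6% of all genes higher and 17.1% lower in wildtype mice, and 15.8% and 14.6% in deficient mice. Summed over 8 fat cell markers, the log2 level ran from 11.31 to 14.41 in wildtype air, 11.70 to 12.36 in wildtype ozone, 11.95 to 14.32 in deficient air and 11.24 to 11.48 in deficient ozone, so that every deficient ozone array lay below every deficient air array; of the 8 markers, 0 passed in wildtype and 1 fell in deficient mice. The 10 skeletal muscle markers summed to 14.57 on deficient air M2 and to 9.35 to 9.70 on the other 15 arrays. The 10 heart muscle markers ran from 12.97 to 14.11 in wildtype air, 13.42 to 13.92 in wildtype ozone, 13.93 to 14.54 in deficient air and 13.62 to 13.81 in deficient ozone, with 2 lower in deficient mice. Of 8 alveolar type 2 cell markers, 2 rose in each genotype, with summed levels of 16.40 to 16.59, 16.55 to 16.62, 16.35 to 16.46 and 16.39 to 16.62 in the same order of groups. Of 7 club cell markers, 2 fell in wildtype and 5 in deficient mice, with summed levels of 16.62 to 16.72, 16.50 to 16.54, 16.56 to 16.68 and 16.33 to 16.54. Of 5 ciliated cell markers, 1 rose and 1 fell in each genotype, and of 8 macrophage markers, 1 fell in wildtype mice and 1 rose and 1 fell in deficient mice. All 5 measured genes of proliferating cells rose in both genotypes, with summed levels going from 8.30 to 8.73 in wildtype air to 10.80 to 11.18 in wildtype ozone and from 8.62 to 8.65 in deficient air to 11.17 to 11.67 in deficient ozone. Alveolar type 2 and club cell markers were present on all arrays.

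Loss of adiponectin was compared in air and in ozone, and none of the 35 genes was called for genotype by limma. In air 0 genes passed, with 1 at an unadjusted p under 0.05, and 0.00807% of all genes were called; in ozone 0 passed, with 5 at an unadjusted p under 0.05, and 0.0161% of all genes were called. Over both exposures together 0 passed, with 3 at an unadjusted p under 0.05, and 0.0888% of all genes were called. The smallest adjusted p of the 35 genes was 0.716 in air, 0.365 in ozone and 0.321 over both. Acaa1b had the largest difference in air, -0.73 ± 0.22 (95% interval -1.19 to -0.26, unadjusted p = 0.00439), with deficient M1, M2 and F1 below all wildtype arrays and the array labelled deficient air F2 among them. After ozone it stood at -0.072 ± 0.22 (95% interval -0.53 to 0.39). In ozone the 5 genes of smallest p were Eci2 at 0.17 ± 0.068, Acadl at 0.16 ± 0.071, Acaa1a at -0.14 ± 0.060, Etfa at 0.18 ± 0.080 and Acot1 at 0.54 ± 0.26. Adjusted p for them ran from 0.365 to 0.443. Acadl read 10.53, 10.59, 10.46 and 10.54 in wildtype ozone and 10.87, 10.75, 10.67 and 10.48 in deficient ozone, and deficient F2 lay within the wildtype range. For Cpt1a the genotype difference was 0.020 ± 0.15 in air (95% interval -0.30 to 0.34) and 0.21 ± 0.15 in ozone (-0.11 to 0.53). For Ppara it was 0.15 ± 0.093 in air (-0.046 to 0.35) and -0.068 ± 0.093 in ozone (-0.27 to 0.13). The median difference of the 35 genes was 0.064 in air and 0.017 in ozone, beside -0.0030 and -0.0080 over all genes. Single arrays moved these medians: that in air was -0.0054 without the array labelled deficient air F2 and 0.029 without wildtype air M1, and that in ozone was 0.073 without deficient ozone F2, 0.041 without wildtype ozone F2, 0.032 without wildtype ozone M1 and 0.0040 without deficient ozone M1.

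Both sexes were used, and 3 of the 35 genes were called between them on their brightest probe set, all lower in females: Cpt1a, Eci2 and Acaa2. These 3 (8.57%) stand beside 5.66% of all genes called for sex, 3.11% higher and 2.55% lower in females. Over 8 mice of each sex, Cpt1a averaged 9.35 ± 0.35 in females and 9.77 ± 0.20 in males (SD), Eci2 9.34 ± 0.093 and 9.55 ± 0.12, and Acaa2 10.20 ± 0.15 and 10.40 ± 0.095. Both males read above both females in all 4 groups for Cpt1a and Eci2, and in 3 of 4 groups for Acaa2.

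**Figure D4:**
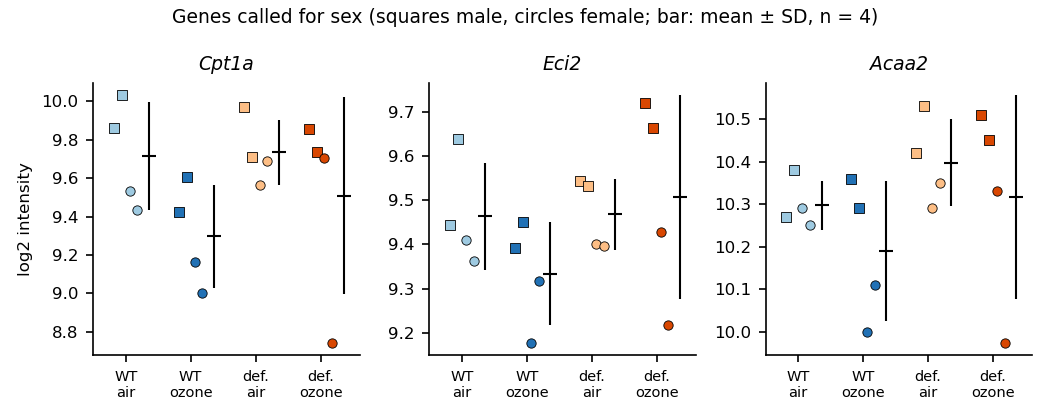
Log2 intensity on each array (squares male, circles female; bar, mean ± SD, n = 4) of the 3 genes called for sex. The male squares lie above the female circles in all 4 groups for Cpt1a and Eci2 and in 3 of 4 groups for Acaa2.

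Eci2, an isomerase of unsaturated chains, read 9.44, 9.64, 9.41 and 9.36 in air and 9.39, 9.45, 9.18 and 9.32 in ozone in wildtype mice, while deficient mice read 9.54, 9.53, 9.40 and 9.40 in air and 9.72, 9.66, 9.43 and 9.22 in ozone. Acaa2 read 10.27, 10.38, 10.29 and 10.25 in air and 10.36, 10.29, 10 and 10.11 in ozone in wildtype mice, while deficient mice read 10.42, 10.53, 10.29 and 10.35 in air and 10.51, 10.45, 10.33 and 9.97 in ozone. In wildtype air the female F1 read above the male M1. The female minus male difference was -0.42 ± 0.11 for Cpt1a (adjusted p = 0.0338), -0.21 ± 0.048 for Eci2 (adjusted p = 0.0231) and -0.20 ± 0.055 for Acaa2 (adjusted p = 0.0449). Eci2 lost its call without the 3 fat- or muscle-marked arrays and deficient ozone F2 (adjusted p = 0.0855), with adjusted p from 0.0158 to 0.0855 across alternatives. The call of Cpt1a did not survive omission of any 1 of 10 arrays, with adjusted p up to 0.0679; it held without deficient air M2, the array labelled deficient air F2, wildtype ozone M1, wildtype ozone F1, deficient ozone F1 and deficient ozone F2, and the adjusted p ran from 0.0126 to 0.0703 over the alternatives. With the mean of all probe sets, Cpt1a was not called (adjusted p = 0.0703). The call of Acaa2 did not survive omission of any 1 of 13 arrays, with adjusted p up to 0.0895, and held without wildtype air M1, the array labelled deficient air F2 and deficient ozone F1 (0.00418 to 0.107 across alternatives). It was also lost without the 3 fat- or muscle-marked arrays (adjusted p = 0.0743), without those and deficient ozone F2 (0.107) and with the replicate block (0.0617). The other 2 probe sets of Cpt1a were not called for sex, at -0.25 ± 0.099 (adjusted p = 0.122) and -0.17 ± 0.080 (adjusted p = 0.213). All 3 probe sets of Acaa2 were called lower in females, at -0.22 ± 0.049, -0.20 ± 0.056 and -0.52 ± 0.082. Acsl4 was not called for sex on its brightest probe set, at -0.13 ± 0.126 (adjusted p = 0.578). Its other 2 probe sets were called lower in females, at -0.483 ± 0.121 (adjusted p = 0.0223) and -0.475 ± 0.125 (adjusted p = 0.0283). The number of the 35 genes called for sex was 1 without any 1 of wildtype air M2, F1 or F2, deficient air M1 or F1, wildtype ozone F2, or deficient ozone M1 or M2, 5 without deficient air M2 and 6 without the array labelled deficient air F2. Over all genes, 3.28% to 5.41% were called in the refits with 1, 5.41% without deficient air M2 and 6.49% without the array labelled deficient air F2. Next in order of p, Decr2 stood at -0.31 ± 0.093 (adjusted p = 0.0657), Pex11a at -0.23 ± 0.074 (adjusted p = 0.0871) and Acaa1b at -0.42 ± 0.15 (adjusted p = 0.121). Beside these, 2 of 8 macrophage, 2 of 8 alveolar type 2 and 2 of 7 club cell markers were lower in females, against 2.55% of all genes. The part of these markers in the difference was not tested. For the interaction of ozone with sex, 0 of the 35 genes passed by limma, with 3 at an unadjusted p under 0.05, and 0.00807% of all genes were called. Decr1 had the smallest p, at -0.32 ± 0.096 (female minus male ozone difference, adjusted p = 0.377), followed by Acadvl at -0.24 ± 0.083 and Crat at -0.24 ± 0.11.

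The surrounding pathway was read in 3 further lists. Of 43 measured genes of PPAR targets and lipid handling, 5 rose and 7 fell in wildtype mice and 5 rose and 11 fell in deficient mice. Of 15 measured regulators, 2 rose and 6 fell in wildtype mice, and 0 rose and 7 fell in deficient mice. Of 34 measured genes of peroxisome biogenesis and transport, 3 rose and 8 fell in wildtype mice, and 2 rose and 11 fell in deficient mice. Over all genes, 19.6% rose and 17.1% fell in wildtype mice, and 15.8% rose and 14.6% fell in deficient mice. The medians of the 3 lists were -0.091, -0.22 and -0.072 in wildtype mice, and -0.12, -0.26 and -0.14 in deficient mice. For genotype in air, in ozone and over both exposures, and for the interaction, 0 genes of the 3 lists passed. Over all genes these shares were 0.00807%, 0.0161%, 0.0888% and 0%. The 8 genes of smallest p for ozone were taken as examples. Nrip1, a corepressor of nuclear receptors, read 8.56, 8.50, 8.60 and 8.45 in air and 7.82, 7.67, 7.84 and 7.80 in ozone in wildtype mice, while deficient mice read 8.58, 8.44, 8.59 and 8.47 in air and 7.86, 7.92, 7.98 and 7.87 in ozone. No ozone array of Nrip1 reached an air array, and Nrip1 fell by 0.75 ± 0.059 in wildtype (adjusted p = 6.81e-07) and by 0.61 ± 0.059 in deficient mice (adjusted p = 3.59e-06). Sirt1, a nuclear protein deacetylase, fell by 0.76 ± 0.11 in wildtype and 0.68 ± 0.11 in deficient mice, and Sirt3, the main deacetylase of mitochondria, by 0.40 ± 0.074 and 0.43 ± 0.074. Lpin1, a phosphatidate phosphatase that also acts with PPARα as a coactivator, fell by 0.45 ± 0.11 and 0.65 ± 0.11. Klf15, a transcription factor of fasting metabolism, fell by 0.40 ± 0.13 (adjusted p = 0.0237) and 0.90 ± 0.13 (adjusted p = 0.000124), with an interaction of -0.49 ± 0.18 (adjusted p = 0.983). The wildtype call of Klf15 did not survive omission of wildtype air M2 (adjusted p = 0.0635) or F1 (0.0619) or wildtype ozone M1 (0.0725) or F1 (0.0846), with adjusted p from 0.00528 to 0.104 across alternatives. It was lost too without the 3 fat- or muscle-marked arrays (adjusted p = 0.0519), without those and deficient ozone F2 (0.0618) and without the sex term (0.104). Among genes of the peroxisome, Pex5, the import receptor for matrix enzymes, rose by 0.25 ± 0.071 in wildtype and 0.49 ± 0.071 in deficient mice, while Pex13, a part of the docking complex to which that receptor binds, fell by 0.38 ± 0.066 and 0.38 ± 0.066. Plin2, which coats lipid droplets, rose by 0.40 ± 0.086 and 0.58 ± 0.086. Adjusted p for these 8 genes lay between 6.81e-07 and 0.0237 in wildtype and between 3.59e-06 and 0.000551 in deficient mice. The bar plot of called shares sets the lists beside all genes.

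**Figure D5:**
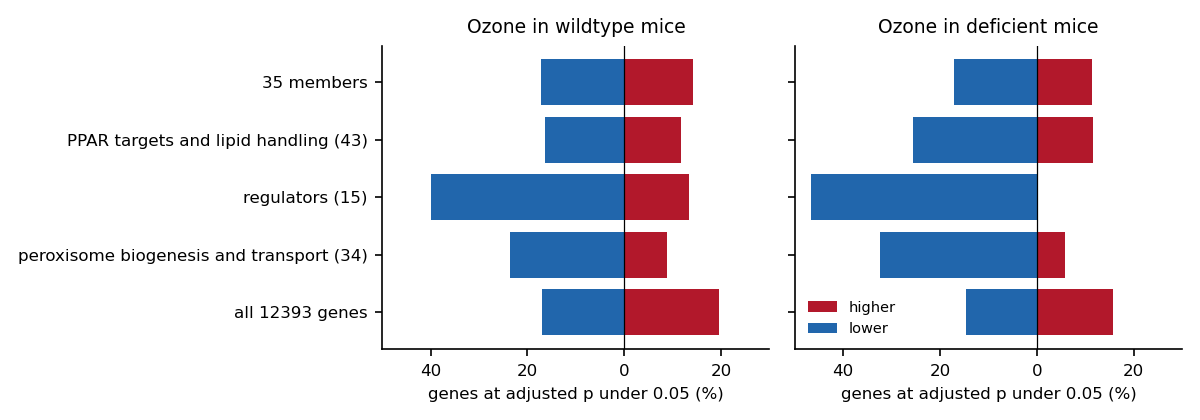
Share of measured genes called higher (right) and lower (left) after ozone, in percent, for the 35 genes, the 3 further pathway lists and all 12393 genes, in wildtype and deficient mice. In deficient mice the bar of regulators lies wholly on the lower side, with 0 of 15 higher and 7 of 15 lower. Over all genes in deficient mice, 15.8% were higher and 14.6% lower.

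Sequence features that the choice of genes did not use were read from the 250 bases upstream of the gene start, which RefSeq's annotation of GRCm38.p6 gave for 31 of the 35 measured genes. The median GC content was 58.8% beside 52.4% over 32851 windows. Those 32851 windows were not limited to the genes measured here, so a difference from them may not be particular to this list. Of the 31 windows, 22 held a GC box (71.0%, beside 32.7% of all windows) and 13 a CCAAT box (41.9%, beside 33.8%), on either strand. The TATA box TATAAA (12.4% of all windows) and the E box CACGTG (6.02%) were found in 0 of the 31. The PPAR core element AGGTCA was found in 5 (16.1%, beside 14.0%), in Acadm, Acadvl, Cpt1a, Echs1 and Scp2, and the direct repeat AGGTCANAGGTCA in 0 (0.0335% of all windows). The core motif of the factor NRF1, GCGCATGCG, was found in 3 of 31 (9.68%, beside 1.45%), in Acadm, Etfdh and Ppara. Stretches of 60 bases around it are shown for Etfdh (chr3:79628862-79628921, minus strand) and Ppara (chr15:85735716-85735775, plus strand), which fell in both genotypes, and around the PPAR core element for Cpt1a (chr19:3323180-3323239, plus strand), which fell in wildtype mice; each is written 5′ to 3′ on the strand of its gene, with the motif in capitals, and the motif runs together with its match on the other strand in the first 2.
Etfdh: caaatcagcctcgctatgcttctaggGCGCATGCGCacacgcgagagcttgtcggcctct
Ppara: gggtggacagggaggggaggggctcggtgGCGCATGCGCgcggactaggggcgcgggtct
Cpt1a: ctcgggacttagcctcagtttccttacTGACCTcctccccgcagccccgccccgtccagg

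A match describes the letters of the window and is no evidence that a factor binds there in lung. Acadm, the third gene with the NRF1 core, did not pass in either genotype, and of the 5 genes with the PPAR core element only Cpt1a passed, in wildtype mice.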

How the data were processed

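The authors deposited, for every array, an intensity per probe set that RMA (robust multi-array average) had produced, per the submitters' processing notes, with no version stated. Its values were linear, 11.1 to 26974.7, not log2 as assumed in the plan, and log2 of the deposited intensity was analysed. Since RMA equalises arrays, a shift common to all transcripts cannot be seen. Of 22690 probe sets, 64 controls, 691 with several symbols and 1555 without one were not used; 20380 remained, for 12393 genes. Symbols come from the platform's annotation, which can be outdated. One limma 3.58.1 model (R 4.3.3; lmFit, eBayes) held all arrays, with genotype-by-exposure group and sex; ozone by sex used 8 groups. Each array is 1 mouse, so p-values rest on the spread between mice, and 4 arrays per group limit the precision. The model was tested on simulated data. The members, all lists, tests and naming rules were chosen with earlier results of these data known. Array values are given for the 12 genes with the largest ozone difference, genes called for sex and up to 3 per role with small differences; those of Hadh, Phyh and Acaa1a were added after their values were seen. The 8 pathway genes named had the smallest ozone p. Deviations of arrays sharing a replicate label correlated at -0.31 to 0.123 over 16 pairs, 1 of them over 0.1. The main model did not pair mice by label, and with 2 mice per sex and group such correlations cannot exclude pairing. Alternatives changed the normalization, centring, dim-gene filter (25%), probe sets per gene, prior, array weights, sex term, replicate block or arrays fitted; 2 were added after seeing the data. Python 3.11.15, pandas 2.3.3 and matplotlib 3.10.9 handled RefSeq windows and figures.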

Additional observations from a re-analysis of the deposited data

Results flagged for a closer look

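In 3 of 140 sets of 4 arrays (35 genes in 4 groups), 1 array stood apart from the other 3 by Dixon's ratio of its gap to the range at its 95% limit, and chance gives such a result in about 1 of 20 sets. Cpt1a was 8.74 on deficient ozone F2 while the other 3 of its group lay between 9.70 and 9.85. Slc25a20, which acts next to Cpt1a in the carnitine shuttle, was 8.92 on the same array against 9.31 to 9.34. Pex11a was 8.15 on wildtype ozone F1 against 8.48 to 8.52. Deficient ozone F2 and wildtype ozone F1 were also the arrays lowest in their groups for most of the 35 genes, 25 and 19.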

How the results depend on the processing

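Leaving out each array in turn, the number of the 35 genes called was 6 to 12 for ozone in wildtype mice, 6 to 10 for ozone in deficient mice and 1 to 6 for sex, while 30.3% to 37.2%, 23.5% to 30.8% and 3.28% to 6.49% of all genes were called. It stayed at 0 for genotype in air, in ozone and over both exposures, for the genotype by ozone interaction and for ozone by sex. Without the 3 fat- or muscle-marked arrays and deficient ozone F2, 6 genes were called for ozone in deficient mice, and the median difference of the 35 genes there moved to 0.0195. With the mean of all probe sets, the ozone difference of Acaa1a in deficient mice turned to -0.069 and that of Scp2 in wildtype mice to 0.077. With the replicate block in place of sex, 10, 9 and 2 genes were called for ozone in wildtype mice, ozone in deficient mice and sex, in place of 11, 10 and 3: the calls of Acaa1a in wildtype mice (adjusted p = 0.0665), Hadh in deficient mice (0.0532) and Acaa2 for sex (0.0617) were lost. Of 49 differences followed over up to 27 alternatives each, 22 were called and stayed so under every one. A further 4 were not called under any, 21 lost or gained the call under at least 1 and 2 changed sign under at least 1. The 49 include the ozone differences of the 8 pathway genes, which were picked by small ozone p. Among the 35 genes, calls kept under every alternative were those of Etfb and Acaa1b in both genotypes, Etfdh and Acot8 in wildtype mice and Ppara in deficient mice. No detection calls were used, so the level of the 4 dim genes above background is unknown. The causes of these changes were not tested.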
